A study of Mus musculus with 6 samples.

Results

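The genes described here are the VEGF ligands Vegfa, Vegfb, Vegfc and Pgf and the VEGF receptors Flt1, Kdr and Flt4. They were taken by gene symbol, and all 7 stood among the 24421 symbols of the deposited files. Endothelial cells sorted from the normal brain of C57BL/6 mice (3 libraries) were compared with endothelial cells sorted from glioma in C57BL/6 mice, 3 weeks after orthotopic injection of GL26l glioma cells (3 libraries). No other treatment or allele is named for either group, and the labels give neither the animals' age nor the marker used for sorting. The comparison addresses how tumor vessels differ from brain vessels at the molecular level, as the series' design text puts it. RNA sets are called independent there, but whether they stem from separate animals is not stated, and the p-values below therefore reflect only the spread among these libraries, which may be technical.

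VEGF ligands are secreted growth factors that drive the growth and permeability of blood and lymphatic vessels through receptor tyrosine kinases on endothelial cells. Vegfa acts mainly through Kdr, which carries most of the mitogenic and permeability signal, and also binds Flt1, which holds the ligand tightly but signals weakly and so can act as a decoy. Vegfb and Pgf bind Flt1, whereas Vegfc binds Flt4 and, after processing, Kdr. In tumors, Vegfa is known mostly as a product of hypoxic tumor and stromal cells that acts on neighbouring endothelium.

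Each of the 3 receptors stood above each of the 4 ligands within every library, and none of the 7 genes differed between glioma and normal endothelium by more than the libraries of a group differed among themselves. Values are the deposited log2 values, read as log2(x + 1) of values normalized to the same distribution in every library, and a difference is glioma minus normal on that scale. Libraries were made from the 3′ ends of transcripts (QuantSeq), so levels of different genes can be set side by side without a correction for gene length. Of the 7 genes, 0 passed a limma Benjamini-Hochberg adjusted p of 0.05, against 0.0% of the 11862 genes tested. At an unadjusted p under 0.05 the count was also 0 of 7, against 4.29% of all tested genes (509 genes, and 1211 without normal replicate 1). The groups overlapped for 7 of 7 genes, where they did not overlap for 13.3% of all tested genes. Of the 7 differences, 2 lay above 0 (Vegfa and Flt4) and 5 below, with a median of -0.51 beside 0.05 over all tested genes. Since these are bulk samples, fewer cells of a type and less RNA per cell cannot be told apart.

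**Figure D1:**
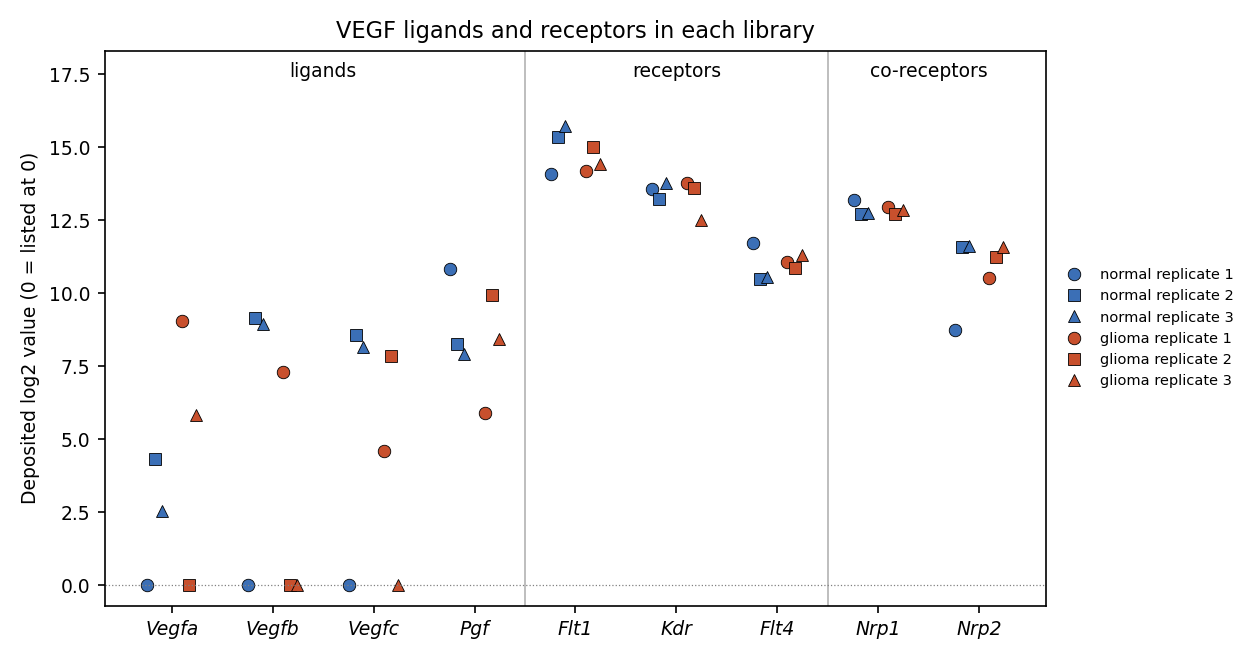
Deposited log2 value of each VEGF ligand, receptor and neuropilin co-receptor (y axis) in the 3 normal (blue) and 3 glioma (red) libraries, with 1 symbol per replicate and points on the dotted line listed at 0. Flt1 and Kdr lie above 12 in all 6 libraries, and Vegfa, Vegfb and Vegfc are each listed at 0 in normal replicate 1.

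The libraries were uneven, and this bears on every value below. Genes above 0 numbered 7446 to 13108 per library, and sequencing depth is unknown because the deposited values no longer hold the library totals. Normal replicate 1 stood apart in detection. Its lowest value above 0 was 7.43, against 0.22 to 5.22 in the other 5 libraries, and of the 2391 genes with a log2 value over 9 in all the others, 142 were listed at 0 there. A 0 in that library therefore covers everything below 7.43. Normal replicates 2 and 3 were alike (r = 0.97 across the 5880 genes that no library lists at 0, which are not replicates), and normal replicate 1 resembled neither closely (r = 0.58 and 0.60). It had r of 0.56 to 0.67 with the glioma libraries, and these had r of 0.54 to 0.75 among themselves, so the libraries did not group by condition in this measure. Date-like numbers that go with the files are shared within each group by its replicates 2 and 3 and never between the groups, so such a batch and the group cannot be told apart. Where normal replicate 1 is left out below, the normal group is replicates 2 and 3 alone. Alike and sharing such a number, they may not count as 2 independent measurements. All 15 endothelial markers were above 0 in every library. Their summed level was lowest in glioma replicate 1, at 12034 parts per 1000000 of the library sum (ppm), and 20754 to 33216 in the others. Glioma replicate 1 also had the highest summed level of platelet and erythroid markers, 14787 ppm against 586 to 3141 (highest gene Hba-a1, a haemoglobin). Of the platelet genes, Gp1bb (11.35) and Pf4 (9.06) had their highest values there. Itga2b was at 8.22 there and 9.22 in normal replicate 1, while Ppbp and Gp9 were at 0 in glioma replicate 1. The summed level of astrocyte markers in glioma replicate 1 was the highest too, 934 ppm against 216 to 763. Slc1a2 was the highest astrocyte gene there, at 13.55, and Gfap, Aqp4 and Ntsr2 were at 0. Aldoc, at 8.80 there, lay below the normal libraries (9.28, 10.74 and 10.86).

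The upstream sequences of 3 genes are shown because Flt1 and Kdr had the highest levels of the 7 genes and Vegfa is the ligand of both. They come from RefSeq on GRCm38.p6, run 5′ to 3′ on the minus strand, and end at the base before the transcription start, with bases that GENCODE M21 annotates as exon left out. Capitals mark matches, on either strand, to TATAAA (the TATA box), TGACGTCA (the cyclic AMP response element), GGGCGG (the GC box), GGAA (the core that ETS factors bind) and the hypoxia response cores ACGTG (preferred form) and GCGTG (variant form), and neighbouring matches can touch or overlap.
Flt1, chr5:147726012-147726261: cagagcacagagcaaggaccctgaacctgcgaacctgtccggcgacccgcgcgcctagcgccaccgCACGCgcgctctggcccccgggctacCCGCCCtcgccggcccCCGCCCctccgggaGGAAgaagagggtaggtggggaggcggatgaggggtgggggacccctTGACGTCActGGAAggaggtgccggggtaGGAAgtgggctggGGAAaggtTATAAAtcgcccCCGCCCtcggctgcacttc
Kdr, chr5:75978459-75978705: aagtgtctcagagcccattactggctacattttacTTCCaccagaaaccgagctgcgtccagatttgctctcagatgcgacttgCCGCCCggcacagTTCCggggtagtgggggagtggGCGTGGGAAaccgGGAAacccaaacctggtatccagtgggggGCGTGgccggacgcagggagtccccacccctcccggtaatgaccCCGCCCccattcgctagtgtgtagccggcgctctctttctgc
Vegfa, chr17:46032378-46032627: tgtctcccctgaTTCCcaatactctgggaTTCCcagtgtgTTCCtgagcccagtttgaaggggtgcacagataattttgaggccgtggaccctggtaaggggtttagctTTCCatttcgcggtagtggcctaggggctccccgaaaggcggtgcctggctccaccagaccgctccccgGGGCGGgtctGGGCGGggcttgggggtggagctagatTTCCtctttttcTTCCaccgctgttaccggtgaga
In the 250 bases upstream, TATAAA was found for Flt1 alone among the 7 genes, where 13% of 27025 RefSeq promoters hold it. TGACGTCA was likewise found for Flt1 alone, beside 1.62% of promoters. GCGTG was present for Flt1, Kdr, Vegfb and Pgf (28.2% of promoters), and ACGTG for none of the 7 genes (16.6%). GGGCGG was present for all 7 genes (32.9% of promoters). GGAA was present for all except Pgf, and 93.4% of promoters hold these letters. Flt1 is known to have a promoter with a TATA box and Kdr one without. A match is a description of letters, not a binding site.

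Flt1, the high-affinity receptor (chromosome 5, 147561604 to 147726011, GRCm38), had the highest mean level of the 7 genes. In order of replicate number, which is kept throughout, the normal libraries had 14.07, 15.36 and 15.72 and the glioma libraries 14.19, 15.00 and 14.42. This corresponds to 1025 to 3179 ppm of the library sum in normal and 1098 to 1930 ppm in glioma libraries, and to ranks 19 to 97 among the genes of each library. Normal replicates 2 and 3 lay above all other libraries, while normal replicate 1 was the lowest of the 6. Replicates 2 and 3 also had the highest summed levels of 15 endothelial markers, 33216 and 32046 ppm against 12034 to 25113. Of these markers Cdh5, Tek and Tie1 were lowest in the same 2 libraries. The part of endothelial content in the Flt1 values was not tested. The difference was -0.51 (SE 0.60, 95% interval -1.88 to 0.86, limma adjusted p = 0.878), from 15.05 ± 0.87 to 14.54 ± 0.42 (SD, n = 3 each). Without normal replicate 1 it was -1.0 (adjusted p = 0.568), and every glioma library then lay below normal replicates 2 and 3. These 2 libraries are alike (r = 0.97). The same order held for 20.7% of all tested genes, and the median difference of all tested genes was -0.35 in that comparison. Flt1 is known to make a soluble, ligand-trapping protein from a shorter transcript as well as the membrane receptor. GENCODE M21 lists 2 protein-coding Flt1 transcripts whose 3′ ends are 73555 bases apart, and the deposited tables give 1 value per symbol, so the forms are not separated here.

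Kdr, the main signalling receptor (chromosome 5, 75932827 to 75978458), was nearly level across 5 of the 6 libraries. The normal libraries had 13.58, 13.24 and 13.79, and the glioma libraries 13.78, 13.59 and 12.50. Glioma replicate 3 was the lowest, at 342 ppm of the library sum, while the other 5 libraries held 567 to 830 ppm. The difference was -0.24 (SE 0.50, limma adjusted p = 0.93), and its 95% interval ran from -1.37 to 0.89.  Without glioma replicate 3 the difference was 0.15. The column header of this library's file calls it a control and names no tissue, so its group rests on the sample title. In that library the summed level of 17 microglia and macrophage markers was 820 ppm, against 16.7 to 242 ppm in the others, with Ptprc, Itgam and Adgre1 at 0 there. Its part in the Kdr value was not tested.

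Flt4, the receptor of Vegfc (chromosome 11, 49609263 to 49652739), is best known from lymphatic endothelium and is also made by sprouting blood vessels. It stood at 11.71, 10.48 and 10.55 in the normal and at 11.06, 10.86 and 11.29 in the glioma libraries, or 84.1 to 200 ppm of the library sum. Normal replicate 1 was the highest library and normal replicates 2 and 3 were the lowest. The difference was 0.16 (SE 0.51, 95% interval -1.02 to 1.33, limma adjusted p = 0.96). Without normal replicate 1 it was 0.55 (adjusted p = 0.627), and all 3 glioma libraries then lay above both normal libraries, as did 14.7% of tested genes. Lymphatic markers were above 0 for 6 of 6 genes in glioma replicate 1, for 3 in glioma replicate 2 and for at most 1 in each other library. Prox1, the factor that specifies lymphatic fate, stood at 4.81 and 4.38 in glioma replicates 1 and 2 and at 0 in the other 4 libraries. The lowest value above 0 was 7.43 in normal replicate 1 and 5.22 in glioma replicate 3, so such Prox1 levels could not show there. Lyve1, the highest lymphatic marker by mean, was at 8.74, 0 and 0 in the normal and 6.41, 6.05 and 7.05 in the glioma libraries. Mmrn1 was at 10.78 in glioma replicate 1 and at 0 in the other 5 libraries. In normal replicates 2 and 3, where Flt4 was at 10.48 and 10.55, all 6 lymphatic markers were at 0. The part of lymphatic cells in the Flt4 values was not tested.

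The order Flt1, Kdr, Flt4, Pgf held for each neighbouring pair in 6 of 6 libraries. Flt1 exceeded Kdr by 0.41 to 2.12 on the log2 scale, Kdr exceeded Flt4 by 1.21 to 3.24, and Flt4 exceeded Pgf by 0.88 to 5.17. Below Pgf the order was not stable. Pgf exceeded Vegfc in 4 libraries, Vegfc exceeded Vegfb in 1 library, and Vegfb exceeded Vegfa in 2, so these neighbours did not differ beyond their spread.

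Receptor balance was also read within each library, where any constant scaling of a library cancels. Normalization to the same distribution in every library is not such a scaling, so these ratios hold for the normalized values only. Flt1 minus Kdr was 0.49, 2.12 and 1.94 in the normal and 0.41, 1.41 and 1.92 in the glioma libraries. In linear terms the normalized value of Flt1 was 1.40 to 4.36 times that of Kdr in normal and 1.33 to 3.78 times in glioma libraries. The group means were 1.52 ± 0.90 and 1.25 ± 0.77 (SD, n = 3 each), a difference of -0.27 (exact two-sided permutation test, p = 0.5). Flt4 minus Kdr was -1.87, -2.75 and -3.24 in the normal and -2.72, -2.73 and -1.21 in the glioma libraries, a difference of 0.40 (exact two-sided permutation test, p = 0.5). Adjusted over these 2 ratios by Benjamini-Hochberg both exact p-values were 0.5, and 3 libraries against 3 cannot give less than 0.1. The spread within a group was larger than either difference, and the lowest Flt1 to Kdr ratios came from 1 library of each group.

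**Figure D2:**
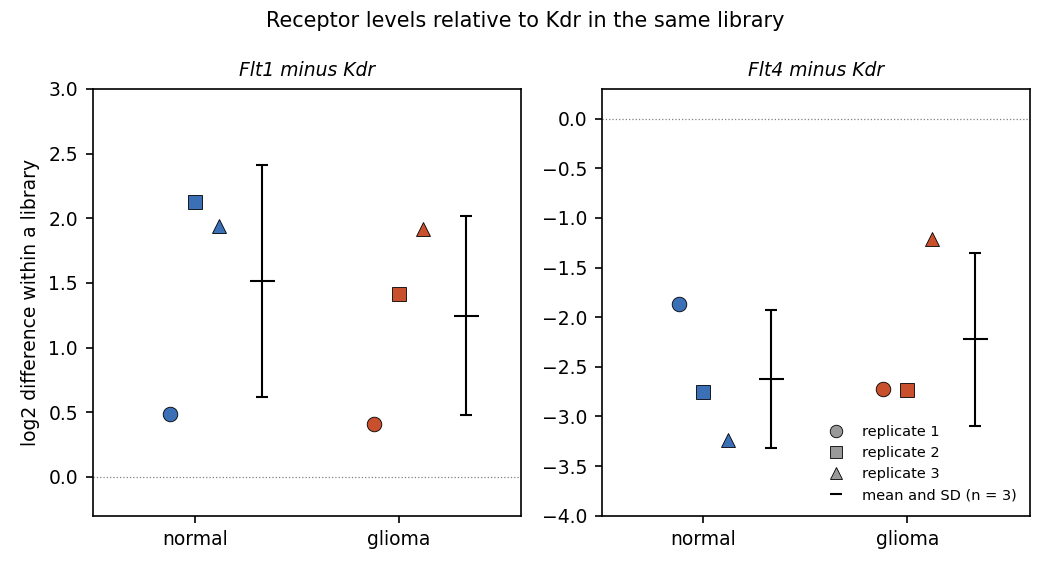
Log2 value of Flt1 (left) and Flt4 (right) minus that of Kdr in the same library (y axes), for the normal (blue) and glioma (red) libraries, with the mean and SD of 3 libraries in black. Flt1 lies above Kdr and Flt4 below it in all 6 libraries, and the groups overlap in both panels.

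Among the ligands, Pgf was the one above 0 in all 6 libraries. Pgf, placental growth factor (chromosome 12, 85166635 to 85177790), occupies Flt1 and is thereby known to free Vegfa for Kdr. It was at 10.84, 8.25 and 7.93 in the normal and at 5.89, 9.93 and 8.43 in the glioma libraries, which is 3.44 to 109 ppm of the library sum. Normal replicate 1 was the highest and glioma replicate 1 the lowest library. The difference was -0.92 (SE 1.28, 95% interval -3.84 to 2.00, limma adjusted p = 0.893), from 9.01 ± 1.59 to 8.08 ± 2.04 (SD, n = 3 each). Leaving out normal replicate 1 made it -0.0077 and leaving out glioma replicate 1 made it 0.17, so its size rested on these libraries. Normal replicate 1 also had the highest summed level of 12 pericyte and smooth muscle markers, 1321 ppm against 401 to 1036 in the others. Rgs5 was the highest of them there, at 13.47 against 9.56 to 12.43 in the others. Pdgfrb, Cspg4, Tagln, Anpep and Higd1b were also highest in that library. Abcc9, Acta2, Myh11, Des and Vtn were higher in some other library, and Kcnj8 was at 0 in normal replicate 1. The part of pericytes and smooth muscle cells in the Pgf value was not tested.

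Vegfa, the ligand that starts most angiogenic responses (chromosome 17, 46016993 to 46032369), was listed at 0 in 1 library of each group. The normal libraries had 0, 4.32 and 2.54, and the glioma libraries 9.03, 0 and 5.82. A single library, glioma replicate 1, held 30.8 ppm of the library sum, and the other 5 held 0 to 3.27 ppm. The fitted difference was 2.66 (SE 2.83, limma adjusted p = 0.878), and it was 0.62 without glioma replicate 1. In that library 9 of 10 fibroblast markers and 9 of 10 neuron markers were above 0, with summed levels of 264 and 552 ppm. The other glioma libraries had 1 to 4 fibroblast and 3 neuron markers above 0, at 3.01 to 41.3 and 4.50 to 75.4 ppm. The normal libraries had 3 to 5 fibroblast and 4 to 10 neuron markers above 0, at 3.57 to 141 and 102 to 126 ppm. Of these markers only Dpt (fibroblasts) and Slc17a7 (neurons) were at 0 in glioma replicate 1. All 8 markers of glioma or neural progenitor cells were above 0 in that library, against 3 to 6 in each other one. Their summed level of 1075 ppm lay within the range of the others (893 to 3359). Prom1 was the highest of them in every library, at 13.48, 15.65 and 15.52 in the normal and 13.59, 14.82 and 14.535 in the glioma libraries. Sox2, named after its values were seen, was at 0, 0 and 1.22 against 7.92, 5.53 and 8.47. It was the 1 wholly higher gene of the 6 tested in this list (against 6.91% of all tested genes), and 0 were wholly lower. The part of any of these cells in the Vegfa value was not tested.

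Vegfb, a Flt1 ligand linked to fatty acid handling and vessel survival (chromosome 19, 6982473 to 6987651), was listed at 0 in normal replicate 1 and stood at 9.14 and 8.96 in normal replicates 2 and 3. Glioma replicate 1 had 7.30, and glioma replicates 2 and 3 were listed at 0. Its two-sided limma test gave a difference of -3.60 (SE 3.40, adjusted p = 0.875). Without normal replicate 1 all glioma libraries lay below the remaining normal libraries, with a difference of -6.61 (adjusted p = 0.484). With every value raised to a shared floor of 7.43, the difference over all 6 libraries was -1.08 (adjusted p = 0.77) in place of -3.60.

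Vegfc, the ligand of Flt4 (chromosome 8, 54077606 to 54187096), followed a similar layout, at 0, 8.57 and 8.14 in the normal and 4.60, 7.86 and 0 in the glioma libraries. The difference was -1.42 (SE 3.28, limma adjusted p = 0.94). Without normal replicate 1 it was -4.20 (adjusted p = 0.585) and the glioma libraries lay below both normal libraries, while without glioma replicate 3 it was 0.66. With the shared floor the difference was -0.48. Vegfb and Vegfc thus joined Flt1 as the 3 of 7 genes that were wholly lower in glioma once normal replicate 1 was left out, against 20.7% of all tested genes. Normal replicates 2 and 3, the libraries highest in Vegfb and Vegfc, also had the highest summed levels of 10 oligodendrocyte lineage markers, 171 and 182 ppm against 14.3 to 101, with 8 and 7 markers above 0 against 1 to 6. Olig2 was at 0 in both of them, and the part of those cells in the ligand values was not tested. Figf, the gene of Vegfd and the other ligand of Flt4, chosen here after its values were seen, was at 0, 8.25 and 7.65 in the normal and 0, 6.31 and 8.87 in the glioma libraries.

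**Figure D3:**
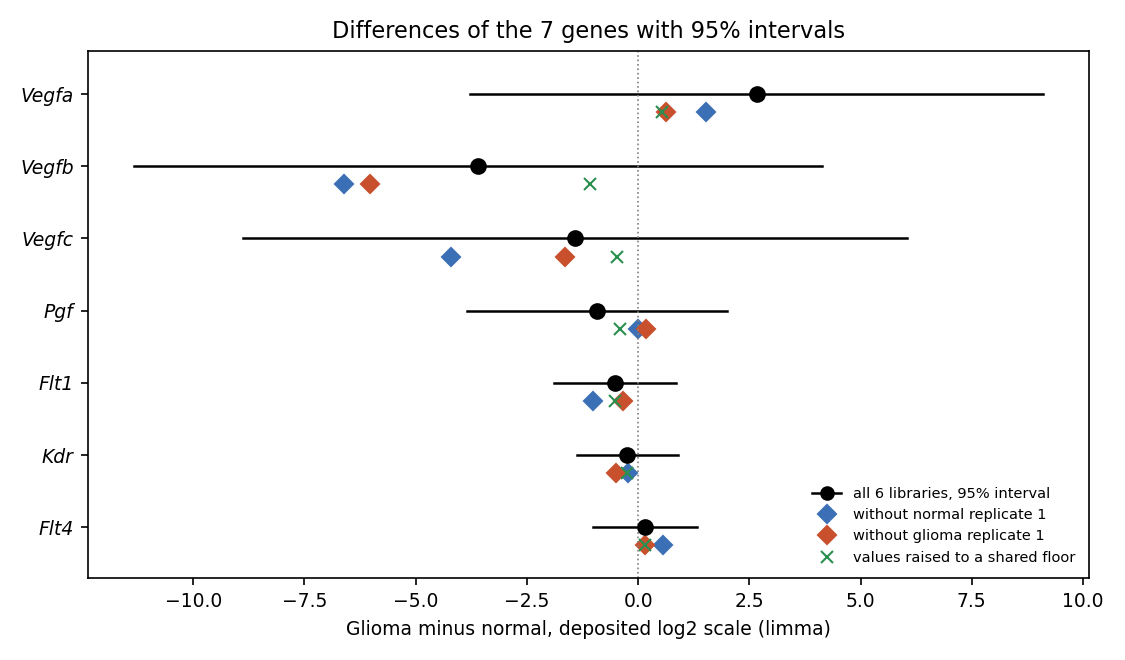
Glioma minus normal difference of each gene on the deposited log2 scale (x axis), with the 95% limma interval over 6 libraries in black and, below it, the value without normal replicate 1, without glioma replicate 1 and with a shared floor. All 7 intervals include 0, and the ligands listed at 0 in some libraries (Vegfa, Vegfb, Vegfc) have the widest ones.

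Neuropilins present Vegfa and Vegfc to the receptors. Nrp1 was the steadiest gene of this group, at 13.17, 12.71 and 12.74 in the normal and 12.95, 12.72 and 12.84 in the glioma libraries. Its difference was -0.04 (SE 0.41, 95% interval -0.97 to 0.89, limma adjusted p = 0.99). Nrp2, the partner of Flt4, was at 8.72, 11.57 and 11.62 in the normal and 10.53, 11.25 and 11.57 in the glioma libraries, with normal replicate 1 far below the other 5. Its limma adjusted p was 0.909. Of 10 receptor partners and co-receptors, 10 were tested, 0 passed the test, and 0 had groups that did not overlap. The median difference of the list was 0.29, beside 0.05 over all tested genes. Its smallest p-values belonged to Cd63, a tetraspanin, at 0, 11.79 and 11.48 against 9.93, 12.58 and 12.92, and to the syndecan Sdc2, at 8.23, 4.94 and 5.33 against 7.99, 7.79 and 7.59.

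Downstream of the receptors, 22 of 23 signalling and trafficking genes were tested and 0 passed the limma test over all genes. In this list 5 genes (Fyn, Akt1, Pxn, Cdc42 and Dab2) lay wholly higher in glioma and 2 (Plcg1 and Mapk3) wholly lower, where 6.91% and 6.37% of all tested genes did so. The list's median difference was -0.17. Fyn, a Src family kinase that acts in VEGF-driven migration, was at 8.70, 9.15 and 9.73 in the normal and 11.95, 11.24 and 11.47 in the glioma libraries. Its difference was 2.36 (SE 0.53, unadjusted p = 0.0018, limma adjusted p = 0.875), higher in 3 of 3 glioma libraries than in any normal one. Mapk3, the gene of the kinase ERK1, was at 13.83, 13.20 and 13.23 in the normal and 12.53, 12.18 and 10.93 in the glioma libraries, a difference of -1.55 (SE 0.53, limma adjusted p = 0.875). Plcg1, the phospholipase recruited by Kdr, was at 8.52, 6.49 and 6.40 against 0, 5.97 and 6.23. Akt1, Pxn, Cdc42 and Dab2 are named because their groups did not overlap, a choice made after their values were seen.

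Of 20 transcripts that VEGF signalling is known to raise, 17 were tested and 0 passed, with a median difference of 0.31. In glioma 0 were wholly higher and 1 wholly lower, where 6.91% and 6.37% of all tested genes did so. Without normal replicate 1, 5 of 17 were wholly higher (Dll4, Angpt2, Apln, Plvap and Spry4) against 14.7% of all tested genes, and 2 were wholly lower (Dusp6 and Unc5b) against 20.7%. Dll4, Angpt2, Spry4 and Unc5b are named after their values were seen, and normal replicate 1 was the highest library for Dll4, Angpt2, Apln and Spry4 and the lowest for Unc5b. The wholly lower gene was Dusp6, a phosphatase that restrains ERK, at 13.69, 13.32 and 13.29 in the normal and 12.87, 12.84 and 12.48 in the glioma libraries (limma adjusted p = 0.875, named after its values were seen). Apln, the tip cell peptide apelin, was at 13.82, 6.21 and 6.52 in the normal and 11.69, 12.93 and 12.89 in the glioma libraries, so normal replicate 1 had the highest value of all 6 (difference 3.66, SE 1.77, limma adjusted p = 0.875). Plvap, the diaphragm protein of leaky endothelium, was at 11.66, 10.64 and 10.58 in the normal and 12.59, 11.32 and 11.99 in the glioma libraries, a difference of 1.01 (SE 0.53, limma adjusted p = 0.875).

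Regulators of VEGF gene transcription and hypoxia sensing gave 14 tested genes of 19, with 0 past the test, 1 wholly higher (against 6.91% of all tested genes) and a median difference of 0.16. The wholly higher gene was Vhl, which targets hypoxia-inducible factors for degradation, at 0, 7.84 and 8.06 in the normal libraries and between 8.09 and 9.31 in the glioma libraries. Egln1, an oxygen-sensing hydroxylase, was at 9.01, 9.82 and 10.05 against 9.76, 9.86 and 11.24. Of 17 extracellular modulators 12 were tested, 0 passed, and 1 was wholly lower (against 6.37% of all tested genes), with a median difference of -0.29. That gene was Sema3c, a semaphorin that binds neuropilins, at 10.66, 12.76 and 12.52 in the normal and 10.62, 10.49 and 9.65 in the glioma libraries (difference -1.73, SE 0.65, limma adjusted p = 0.875). Thbs1, the angiogenesis inhibitor thrombospondin, was at 9.03, 0 and 0 in the normal and 7.66, 6.48 and 9.20 in the glioma libraries. Without normal replicate 1, 3 of 14 regulators and 3 of 12 modulators were wholly higher and 2 of each wholly lower. Of the 10 receptor partners 3 were then wholly higher and 0 wholly lower, and of the 22 signalling genes 6 and 4. In that comparison 14.7% of all tested genes were wholly higher and 20.7% wholly lower.

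**Figure D4:**
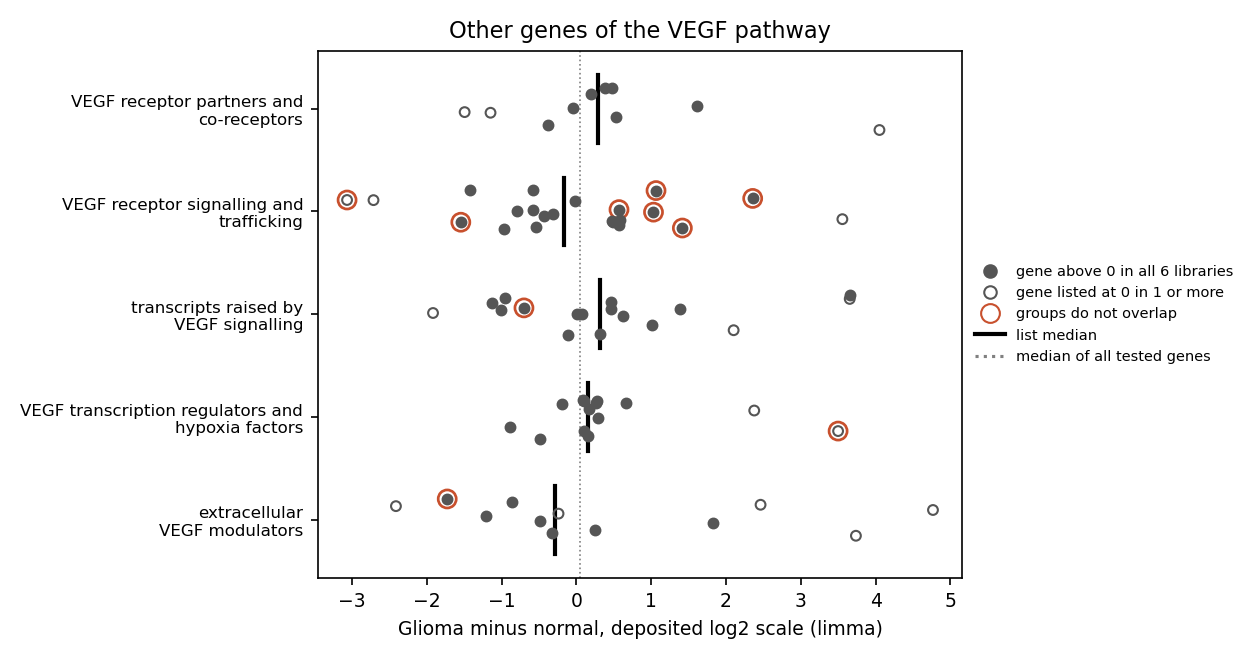
Glioma minus normal difference on the deposited log2 scale (x axis) of each tested gene in 5 lists of the VEGF pathway (y axis), with open points for genes listed at 0 in 1 or more libraries, red rings for groups that do not overlap and black bars for list medians. List medians lie between -0.29 and 0.31, beside 0.05 for all tested genes (dotted line).

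Across the 6 libraries, the 4 genes above 0 throughout were compared by root mean square difference on the log2 scale, each centred on its mean. It was smallest for Kdr and Flt4, at 0.67, and largest for Pgf and Flt1, at 1.73. The root mean square around its own mean was 0.45 for Kdr, 0.43 for Flt4, 0.61 for Flt1 and 1.565 for Pgf. The 0.67 thus exceeds the spread of either gene and does not show that Kdr and Flt4 moved together. Genes above 0 in all libraries with a mean of at least 9 were ranked by the same root mean square difference. Those nearest to Flt1 were Prpf6 (0.15), Pcmtd1 (0.16) and Arap3 (0.19), where the median over 3783 genes was 0.92. Wapal (0.19), Ddx3y (0.19) and Sod1 (0.20) came nearest to Kdr, beside a median of 0.86. For Flt4 they were Sash1 (0.13), Txn1 (0.14) and Txndc9 (0.14), beside 0.87, and for Pgf Myd88 (0.45), Lysmd2 (0.47) and Plekha2 (0.52), beside 1.73. With 6 points a gene, these are descriptions, and normal replicate 1 is the highest or lowest point for Flt1, Flt4 and Pgf.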

How the data were processed

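Per the labels' protocols, total RNA was extracted with Trizol and sequenced from Lexogen QuantSeq libraries. Per the submitters' processing notes the tools include Bowtie2 and edgeR and the build is mm10, with no role stated. The sources used here give no counting tool, strand setting, annotation or normalization. A library holds 1 deposited log2 value for each of 24421 symbols. Their form was read from the values. The highest value was equal in all libraries, and back-transformed values above 0 were multiples of 1 divided by 6 within a tolerance of 0.02, so they were taken to be log2(x + 1) after quantile normalization over the 6 libraries.

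The fit used limma 3.58.1 (R 4.3.3) on the 11862 genes that reached a back-transformed value of 1 in 3 or more libraries, with a trend of variance on mean level, group as the sole term, 4 residual degrees of freedom and Benjamini-Hochberg adjustment at 0.05. The script was tested on simulated data with the means and within-group spread of the tested genes. It recovered 0 of 50 genes changed by 1 on the log2 scale and 0 of 50 changed by 2. Of those changed by 4 it recovered 7 of 50, and of those changed by 8, 29 of 50. A gene that did not pass is therefore not shown to be unchanged. Levels in ppm are shares of the summed back-transformed values, computed in Python 3.11.15. No group mean is printed for genes listed at 0 in any library, since broadly expressed genes also appear at 0, and their fitted differences take a 0 as a value.

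The genes, lists and tests were chosen with earlier results of these data known. Named by rule were the 7 genes, Nrp1, Nrp2, the 2 members of each pathway list with the smallest p, the 3 highest members of each marker list, and the 3 genes nearest in profile to each of the 7 that was above 0 in all libraries. Coordinates are from GENCODE M21 (GRCm38, the assembly of mm10), and promoters from RefSeq on GRCm38.p6, where 7 of 7 genes matched.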

Additional observations from a re-analysis of the deposited data

How the results depend on the processing

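No alternative brought any of the 7 genes past the threshold. Over all genes the count stayed at 0 except without the mean trend, where limma called 15, none of them among the 7. The main limma fit had 509 genes at an unadjusted p under 0.05. The alternatives that kept all libraries had 354 to 655, over 5880 to 15633 tested genes. Leaving out each library in turn gave 0 genes, with 303 to 1211 at an unadjusted p under 0.05. The 1211 came without normal replicate 1, where the smallest adjusted p was 0.142 in place of 0.875. Leaving out 1 library moved the difference of Vegfa from 0.62 to 5.14, Vegfb from -6.61 to -2.05, Vegfc from -4.20 to 0.66, Pgf from -1.85 to 0.17, Kdr from -0.49 to 0.15, Flt1 from -1.0 to -0.18 and Flt4 from -0.06 to 0.55, Flt1 minus Kdr from -0.78 to 0.15 and Flt4 minus Kdr from -0.11 to 0.77. The sign turned for Vegfc without normal replicate 2 (0.083) or glioma replicate 3 (0.66), for Pgf (0.17) and Flt1 minus Kdr (0.15) without glioma replicate 1, for Flt1 minus Kdr without normal replicate 2 (0.033), for Kdr (0.15) and Flt4 minus Kdr (-0.11) without glioma replicate 3, and for Flt4 without normal replicate 2 (-0.060) or 3 (-0.029). Centring each library on 15 endothelial markers made the Kdr difference 0.18 and moved the median of all tested genes from 0.05 to 0.47, so that Kdr lay 0.29 below that median in both. The same centring took the Flt1 difference from -0.51 to -0.095 and the Flt4 difference from 0.16 to 0.57. Relative to the median of all tested genes they stayed at -0.56 and 0.11. The other 45 differences of the 7 genes under settings that kept all libraries had the same sign, shared floor and pseudocount of 16 included.

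Same-numbered libraries deviated together with correlations of 0.13, 0.03 and 0.06, so the numbers were not taken to pair them. With the replicate number as a block 0 genes passed (610 at an unadjusted p under 0.05), and normal replicate 1 alone of the normal libraries correlated best with its own number. Depth is unknown, and values below 7.43 cannot be told from 0 in normal replicate 1.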
